A study of Danio rerio with 96 samples.

Results

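Apolipoproteins are the protein parts of lipoproteins, the particles that carry triglyceride, cholesterol and phospholipid between tissues. ApoB is the large scaffold on which a particle is assembled and secreted. ApoA-I, ApoA-II, ApoA-IV, ApoC and ApoE are small proteins that sit on the particle surface, move between particles, and act on the enzymes and receptors that handle them. In zebrafish, which feed from a lipid-rich yolk until the gut opens, several of these genes are transcribed in the yolk syncytial layer, the tissue that packs yolk lipid into lipoproteins, and later in the liver and intestine.

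The 10 gene names chosen for this family (*apoa1a*, *apoa1b*, *apoa2*, *apoa4a*, *apoa4b.2*, *apoba*, *apobb.1*, *apoc1*, *apoea* and *apoeb*) were looked up in a count table of 25907 Ensembl genes. A name was enough to enter the set, and 9 of the 10 were found. The name *apoba* was not listed. A further ApoB gene is listed as *APOB*, without a letter for the zebrafish copy, and its values are given under that name beside the other 9 and are not counted with them. All 9 passed the filter of a mean count of at least 2.5 at every time point. The family was proposed with results of these data in view. *apoa4a* had been selected on its measured differences in the 60 hpf comparisons among XR, Cont, FA and FA+XR, so its values in those comparisons are given as a description, without a test. Which earlier values bore on the other names is not known, so their treatment calls describe these libraries and are not independent evidence.

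The samples were 96 RNA-seq libraries, each from the whole body of 1 zebrafish larva of an albino line (slc45a2 b4/b4). Cont larvae received neither treatment. XR larvae were given 8 Gy of X-rays at 36 h post-fertilization (hpf), FA larvae were kept in 200 µM folic acid (FA) from 35 hpf, and FA+XR larvae received both. Each treatment was sampled at 36, 37, 60 and 84 hpf with 6 larvae per group, the last 3 times being 1, 24 and 48 h after irradiation. Whether larvae labelled 36 hpf were taken before or after the exposure is not stated, and each treatment was kept in its own well, so that well and treatment cannot be told apart.

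Library totals ran from 243126 to 16470291 counts (median 3477936), and 13 libraries lay under 50% of the median of their time point. One FA+XR library of 37 hpf, of 243126 counts, was the lowest of its group for all 9 genes and *APOB*, and stood far below the other larvae in 7 of the 9. Levels are CPM, reads of a gene scaled to a common library size, with TMM factors over all 96 libraries, and log2 differences come from edgeR's quasi-likelihood test with Benjamini-Hochberg adjustment over all genes tested. A gene was called at an adjusted p below 0.1. The genes were not ranked against each other by level, because CPM is not corrected for transcript length. Reads of close copies (*apoa1a* and *apoa1b*, *apoea* and *apoeb*, *apobb.1* and *APOB*, and *apoa4b.2* with its tandem neighbours) could have been divided between them by the counting, so values of single copies are uncertain to that extent. In whole larvae, fewer cells of a type and less RNA per cell cannot be told apart.

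The 9 genes together took between 1.84% and 3.35% of all counts in a library, with medians of 2.38% at 36 hpf, 2.67% at 37 hpf, 2.45% at 60 hpf and 2.19% at 84 hpf. In the order of protein-coding genes of the RefSeq annotation (assembly GRCz12tu, used for order only), 6 of the 10 names stand directly beside another apolipoprotein gene. *apoa4b.2*, *apoeb* and *apoc1* follow one another, *apoa2* lies between *apoc4* and *apoc2*, and *apoa4a* is next to *apoea*. Adjacent genes could still differ in their course over time: the Cont medians of *apoa4a* went from 186 to 10.8 CPM between 36 and 84 hpf, and those of *apoea* from 494 to 493 CPM.

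**Figure D1:**
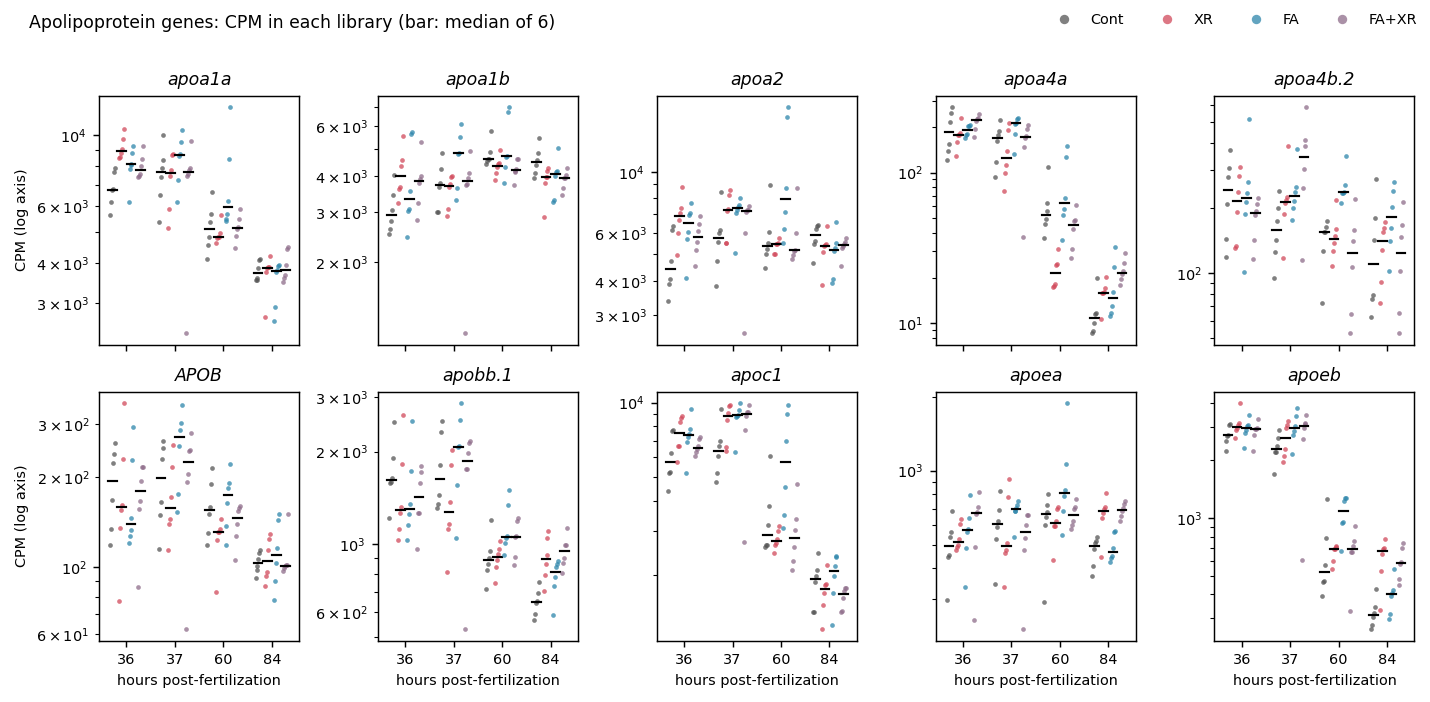
CPM (log axis) of each apolipoprotein gene in every library against hours post-fertilization, coloured by treatment, with a black bar at the median of 6 larvae. In Cont, *apoa4a* went from a median of 170 CPM at 37 hpf to 10.8 CPM at 84 hpf and *apoeb* from 2292 to 313 CPM, while *apoa1b* stayed between medians of 2917 and 4611 CPM over all 4 times.

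The first comparison asked how the genes changed as untreated larvae developed. In Cont, 5 of the 9 fell between 37 and 60 hpf (14.3% of all genes tested fell) and 4 fell between 60 and 84 hpf (2.8% of all genes fell), and edgeR called none of the 9 as higher in either interval, while DESeq2 called *apoa1b* as higher from 37 to 60 hpf. The genes that fell in both intervals were *apoa4a*, *apoeb*, *apoc1* and *apoa1a*, the second step of *apoa1a* lying near the threshold. Both steps of *apoa4a* use the Cont values of 60 hpf that led to its choice, so its part in these counts is a description. Between 36 and 37 hpf none of the 9 was called by edgeR or by DESeq2, and none had an unadjusted p below 0.05. The median log2 difference of the 9 was -0.55 from 37 to 60 hpf and -0.45 from 60 to 84 hpf, beside 0.08 and -0.01 over all genes.

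*apoa4a* encodes an ApoA-IV, a lipoprotein surface protein known in mammals to be induced in the intestine by fat absorption. Its CPM in Cont ran from 122 to 272.5 (median 186) at 36 hpf and from 93.01 to 224 (median 170) at 37 hpf. It then ran from 36.8 to 109 (median 52.4) at 60 hpf and from 8.59 to 19.98 (median 10.8) at 84 hpf. The ranges at 60 and 84 hpf did not overlap. The log2 difference was -1.41 ± 0.25 (SE) from 37 to 60 hpf and -2.38 ± 0.26 from 60 to 84 hpf. Both steps use the Cont values of 60 hpf that led to the choice of the gene, so they are given without a test.

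*apoeb* encodes an ApoE, a ligand of lipoprotein receptors, and is a known transcript of the yolk syncytial layer. Its Cont levels ran from 2244 to 3117 CPM at 36 hpf, 1707 to 2884 at 37 hpf, 393 to 1266 at 60 hpf and 263 to 427 at 84 hpf. The fall between 37 and 60 hpf left no overlap between the groups, with a log2 difference of -1.82 ± 0.21 (edgeR adjusted p = 1.28e-11). The second step was -1.03 ± 0.21 (adjusted p = 0.00018), and 1 Cont library of 60 hpf, at 1266 CPM, stood above the other 5, which lay at or below 790 CPM.

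*apoc1*, a small surface apolipoprotein known in mammals to restrain lipid uptake and lipases, fell from a median of 6379 CPM at 37 hpf (range 4774 to 9394) to 2911 at 60 hpf (2604 to 6094) and 1928 at 84 hpf (1407 to 2454). Its log2 differences were -0.90 ± 0.21 (edgeR adjusted p = 0.00037) and -0.90 ± 0.21 (adjusted p = 0.0013). *apoa1a*, one of a pair of genes for ApoA-I, the main protein of high-density lipoprotein, fell less. Its medians were 7656, 5102 and 3731 CPM at 37, 60 and 84 hpf, with log2 differences of -0.55 ± 0.16 (edgeR adjusted p = 0.0073) and -0.45 ± 0.16 (adjusted p = 0.092). The second step was not called without the filter on low counts (adjusted p = 0.135), and over the alternatives its adjusted p ran from 0.00233 to 0.135. *apobb.1*, an ApoB scaffold gene, fell from 37 to 60 hpf (medians 1629 and 885 CPM, log2 difference -0.98 ± 0.21, edgeR adjusted p = 0.000105), and its second step of -0.48 ± 0.20 was not called.

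The remaining genes had no called step in Cont. *apoa1b*, the other ApoA-I copy, had Cont medians of 2917, 3743, 4611 and 4480 CPM at 36, 37, 60 and 84 hpf. *apoa2*, for ApoA-II, a second protein of high-density lipoprotein, had medians of 4411, 5753, 5350 and 5883 CPM, and *apoea*, the second ApoE copy, had 494, 605, 663 and 493 CPM. *apoa4b.2* had medians of 243, 158, 155 and 110 CPM with wide ranges in each group, and *APOB* had 195, 198, 155 and 104 CPM.

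These falls depend in size on the scaling. Scaled by library totals alone, without TMM factors, the Cont difference from 37 to 60 hpf would be higher by 0.41 on the log2 scale for every gene, and that from 60 to 84 hpf by 0.05. With library totals the log2 ratio of the Cont medians from 37 to 60 hpf was -1.13 for *apoa4a*, -1.69 for *apoeb*, -0.70 for *apoc1*, -0.48 for *apobb.1* and -0.09 for *apoa1a*, against -1.70, -2.14, -1.13, -0.88 and -0.59 with TMM. All 5 kept their direction, while the medians of *apoa2*, *apoa4b.2* and *APOB* turned from lower to higher.

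The same intervals were then fitted in the treated groups. Counts that include *apoa4a* rest in part on 60 hpf values that led to its choice, and the counts were not tested against those of Cont. From 37 to 60 hpf, 5 of the 9 fell in XR (15.8% of all genes fell), 6 fell in FA+XR (14.4%), and in FA 4 fell (13.7%) and 2 rose (16.3%), the risers being *apoa2* at 0.51 ± 0.19 and *apoea* at 0.51 ± 0.21. From 60 to 84 hpf, 1 of the 9 fell in XR (1.68% of all genes), 2 fell in FA+XR (1.78%), and 7 fell in FA (10.5%). The FA values of 60 hpf include 3 larvae that stood apart, described with that time point. Without them and 1 FA+XR larva, a choice made after seeing the data, no gene rose in FA from 37 to 60 hpf, *apoa2* being at -0.14 ± 0.21 and *apoea* at 0.13 ± 0.24, and 5 fell. From 60 to 84 hpf 4 of the 9 then fell in FA instead of 7, as *apoa2* (-0.31 ± 0.20), *apoea* (-0.58 ± 0.24) and *apobb.1* (-0.36 ± 0.25) were no longer called. With only the libraries compared, the rises of *apoa2* and *apoea* were not called either (edgeR adjusted p = 0.146 and 0.102). *apoc1* was the one gene called as lower in all 4 groups in both intervals. Its fall in FA from 37 to 60 hpf (-0.50 ± 0.20) was not called by DESeq2, with RLE factors, with no filter or with only the libraries compared. Nor did it pass an adjusted p below 0.05. *apoeb*, which fell by 1.03 from 60 to 84 hpf in Cont and by 1.41 in FA, differed by -0.10 ± 0.21 in XR and -0.19 ± 0.21 in FA+XR. The difference between XR and Cont in that step was 0.93 ± 0.29 for *apoeb* and was not called (edgeR adjusted p = 0.84 across all genes). Scaled by library totals, differences from 37 to 60 hpf would be higher by 0.50 in XR, 0.31 in FA+XR and 0.21 in FA. From 60 to 84 hpf they would be higher by 0.09, 0.13 and 0.57. In XR the earlier step of the medians was then 0.02 for *apobb.1* and -0.05 for *apoa1a*, against -0.48 and -0.67 with TMM. In FA the later step was 0.04 for *apobb.1* and -0.19 for *apoea*, against -0.38 and -0.80. *apoa4a*, *apoeb* and *apoc1* kept their direction in every group.

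The other genes of lipoprotein handling are given from lists drawn up from their known roles. Over all genes 14.3% fell and 16.5% rose in Cont from 37 to 60 hpf. Calls of single listed genes in that interval are therefore not read as a trait of their list. In lipoprotein assembly and secretion, where 10 of 14 names were found, 3 genes fell and 1 rose in Cont from 37 to 60 hpf. The genes were *pla2g12b* (-1.11 ± 0.18), which in zebrafish is needed for lipoprotein secretion, *mttp* (-0.65 ± 0.25), which loads lipid onto ApoB, *p4hb* (-0.49 ± 0.13), the partner subunit of that transfer protein, and *sar1b* (0.52 ± 0.15), of the vesicles that carry lipoproteins from the endoplasmic reticulum. The median of that list was -0.49 in this interval, beside 0.08 over all genes. Of the lipoprotein receptors and scavenger receptors, only the 4 called genes with the smallest p are named. Of these, *stab2* (-1.77 ± 0.28), *cd36* (-1.99 ± 0.40) and *scarb1* (-0.52 ± 0.11) fell and *vldlr* (2.43 ± 0.47) rose in the same interval. The cell type markers moved in both directions. Of 14 liver markers tested, 1 rose and 5 fell in Cont from 37 to 60 hpf. From 60 to 84 hpf, where 4.41% of all genes rose and 2.8% fell, 4 of them rose and none fell. Among the 4 was *fabp10a*, the liver fatty acid-binding protein, at 4.07 ± 0.35. At 37 hpf the Cont median of *fabp10a* was 2.62 CPM beside 3170 CPM for the list in sum. The early levels of this list are therefore not read as a measure of liver. Of 5 enterocyte markers 1 rose and 1 fell from 37 to 60 hpf, the second being *fabp2*, the intestinal fatty acid-binding protein, at -2.55 ± 0.25 (edgeR adjusted p = 1.76e-14). The median of their sum went from 962 to 178 CPM, but that sum was mostly *fabp2*, whose own medians were 942 and 158.5 CPM. In the second interval 3 of the 5 rose and none fell, among them *vil1*, a protein of the brush border, at 2.74 ± 0.39. The vitellogenin genes, which encode yolk proteins, were at 0 to 1.35 CPM in sum in Cont at 60 hpf and 0 to 1.31 CPM at 84 hpf. Their RNA does not measure the yolk that a larva holds.

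At 36 hpf, none of the 9 genes was called by edgeR in any of the 5 treatment comparisons, where 0.0207% of all genes were called in XR against Cont, 0.0138% in FA against Cont, 0.0553% in FA+XR against Cont and none in the other pair. DESeq2 called 2 of the 9 in XR against Cont, where it called 123 of all 14466 genes, and none in the other 4 comparisons. An unadjusted p below 0.05 was found for 4 of the 9 in XR against Cont and for 4 in FA against Cont, and for at most 1 in each of the others. Of all 14466 genes 1306 had such a p in XR against Cont and 1213 in FA against Cont. The gene nearest the threshold was *apoa1a*. Its CPM was 5648, 6171, 6734, 6786, 7684 and 7893 in the Cont larvae and 8490, 8563, 8790, 9035, 9695 and 10450 in the XR larvae, so that all 6 XR values lay above all 6 Cont values. The FA and FA+XR values, 6188 to 9261 and 7401 to 9233, overlapped both. The XR difference was 0.42 ± 0.09 with an edgeR adjusted p of 0.104, and over the alternative settings the adjusted p ran from 0.0146 to 0.196. Scaled by library totals, differences of XR against Cont at this time would be lower by 0.19 on the log2 scale.

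At 37 hpf, 1 h after irradiation, none of the 9 was called by edgeR in the 5 treatment comparisons, where 0.104% of all genes were called in XR against Cont, 0.118% in FA+XR against FA, 0.0974% in FA+XR against Cont and none in the other pair. DESeq2 and limma-voom each called *apoa4b.2*, an ApoA-IV gene of the tandem cluster, in FA+XR against Cont and no other of the 9. Of all 14380 genes they called 30 and 26 in that comparison. At most 1 of the 9 had an unadjusted p below 0.05 in any comparison. The CPM of *apoa4b.2* was 94.4, 124, 142, 174, 200.1 and 239.5 in Cont, 117 to 387 (median 213.5) in XR, 176 to 376 (median 226.5) in FA and 114, 248, 301, 388, 414 and 587 in FA+XR. Of the 6 FA+XR larvae 5 lay above every Cont larva, and the one at 114 CPM was the library of 243126 counts. The difference was 1.07 ± 0.26 with an edgeR adjusted p of 0.161. Without libraries under 50% of the median depth it was called, and over all alternatives the adjusted p ran from 0.00219 to 0.642. The lowest came without the library of 243126 counts and the highest without the FA+XR library of 3653575 counts.

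At 60 hpf, 24 h after irradiation, *apoa4a* was lower in XR than in Cont. The Cont larvae had 36.8, 45.7, 48.8, 56.005, 62.9 and 109 CPM and the XR larvae 17.3, 17.8, 18.3, 24.5, 24.6 and 31.1 CPM, so the groups did not overlap. The FA larvae had 35.9, 52.3, 57.4, 68.1, 126 and 150 CPM, and the FA+XR larvae 26.9, 31.3, 42.1, 48.0, 48.2 and 61.1 CPM. All 6 XR larvae lay below every FA larva, and all 6 FA+XR larvae lay above the XR median of 21.4 CPM while overlapping with both Cont and XR. The log2 difference was -1.45 ± 0.28 for XR against Cont, -0.91 ± 0.27 for FA+XR against FA, 0.94 ± 0.28 for FA+XR against XR and -0.51 ± 0.27 for FA+XR against Cont. As these comparisons led to the choice of the gene, the values are a description and no call is given for it at this time. Of all genes 0.147% were called as lower in XR against Cont and 0.276% were called in FA+XR against Cont, and in neither comparison was any of the remaining 8 genes called by edgeR. The difference of the remaining 8 genes between XR and Cont at this time lay between -0.34 and 0.08, none with an unadjusted p below 0.05.

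FA larvae of 60 hpf had higher median levels than Cont larvae for all 9 genes with TMM factors, *apoa4a* being among them as a description. With library totals the medians of 4 of the 9 turned lower in FA, at 6228 against 6413 CPM for *apoa1a*, 4686 against 5666 for *apoa1b*, 1055 against 1097 for *apobb.1* and 791 against 854 for *apoea*. In the edgeR fit 7 of the 9 had an unadjusted p below 0.05, as did 2021 of all 16319 genes. Of the 7, *apoa4b.2* was called (0.83 ± 0.24, edgeR adjusted p = 0.095, 1.32% of all genes called as higher). Its CPM was 211, 235, 235, 237, 256 and 346 in FA and 72.8, 126, 154, 155, 163 and 173 in Cont, with no overlap. In FA+XR it was 52.8, 64.6, 107, 141, 158 and 220. Between FA+XR and FA, 3 of the 9 genes were lower (1.06% of all genes were called as lower), namely *apoa4b.2* at -1.03 ± 0.24 (edgeR adjusted p = 0.044), *apoc1* at -1.02 ± 0.24 (adjusted p = 0.049) and *apoa2* at -0.79 ± 0.22 (adjusted p = 0.092). The median difference of the 9, with *apoa4a* among them as a description, was -0.64, beside 0.06 over all genes. DESeq2 called 8 of the 9 in FA+XR against FA and 7 in FA against Cont, and limma-voom 3 and 0. Of all 16319 genes DESeq2 called 947 and 1049, and limma-voom 445 and 0. The 8 include *apoa4a*, whose values at this time are a description. Among 11 other apolipoprotein genes tested, *apoda.1* (-1.06 ± 0.21), *apoc2* (-0.84 ± 0.22) and *apom* (-0.90 ± 0.25) were lower in the same comparison, and no gene of the list was higher.

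The FA group at 60 hpf held larvae that stood apart. For *apoa2* the FA values were 5515, 6187, 7155, 8774, 15820 and 17280 CPM, beside 4474 to 8961 in Cont and 4804 to 8744 in FA+XR. For *apoc1* they were 3087, 3481, 4524, 7003, 9002 and 9772 CPM, beside 2604 to 6094 in Cont and 2100 to 4691 in FA+XR. The 3 highest FA libraries, of 5295573, 2586967 and 767872 counts, were the same for both genes, although for *apoa2* the last lay within the Cont range. They also had the 3 lowest summed levels of the 2 skeletal muscle markers found (*ckma* and *actc1b*), at 5491, 8121 and 5730 CPM, whereas the lowest Cont library had 13601 CPM. Their 3 erythroid markers summed to 28886, 24083 and 17048 CPM, above the Cont range of 6944 to 13640 CPM, and their 15 liver markers found summed to 5940, 4478 and 2829 CPM beside 1887 to 3029 CPM in Cont, so that the last lay within the Cont range. The Cont median of *fabp10a* at this time was 16.7 CPM beside 2249 CPM for the liver markers in sum, so the sum is not read as a measure of liver. The part of these marker levels in the apolipoprotein values was not tested.

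**Figure D2:**
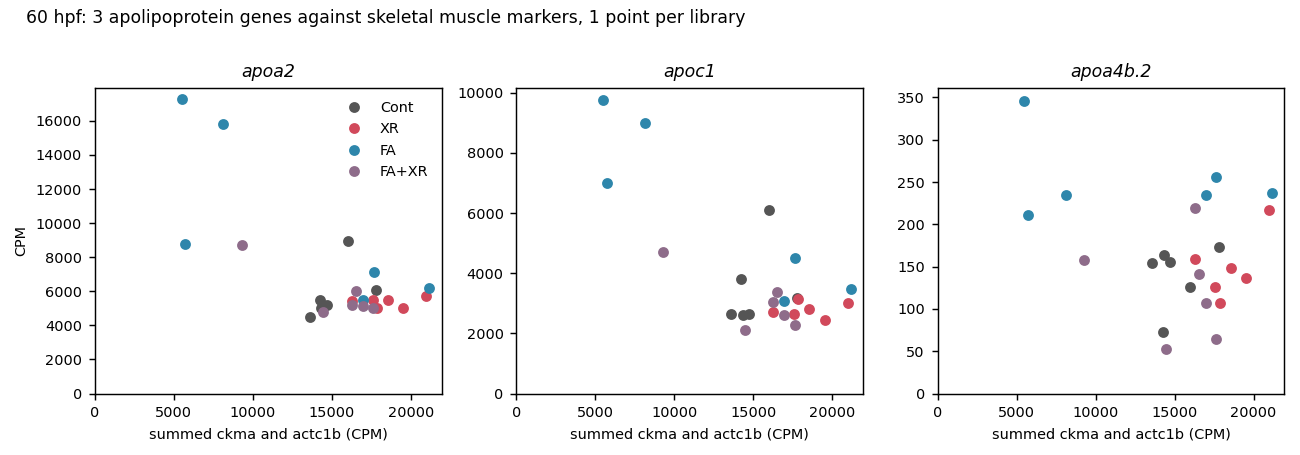
CPM of *apoa2*, *apoc1* and *apoa4b.2* in each of the 24 libraries of 60 hpf against the summed CPM of the skeletal muscle markers *ckma* and *actc1b*, coloured by treatment. The 3 FA libraries at 5491 to 8121 CPM of muscle markers carry the highest *apoc1* levels, and 1 FA+XR library at 9298 CPM lies nearest to them.

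The calls against FA at 60 hpf rested in part on those larvae. When the 4 libraries below the lowest Cont level of muscle markers (3 FA and 1 FA+XR) were left out, a choice made after seeing the data, the FA+XR against FA difference was -0.47 for *apoc1* and -0.27 for *apoa2*, neither of them called, and -1.05 for *apoa4b.2*, which was called (edgeR adjusted p = 0.067). The FA against Cont difference of *apoa4b.2* was then 0.78 and not called. Without these libraries the described *apoa4a* difference was -1.46 for XR against Cont, groups from which no larva was left out. Its FA against Cont difference turned from 0.40 to -0.35, and that of FA+XR against FA went from -0.91 to -0.29. With only the 12 libraries of FA and FA+XR in the fit, none of the 9 was called by edgeR. Scaled by library totals, the FA against Cont differences would be 0.38 lower on the log2 scale and those of FA+XR against FA 0.32 higher.

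At 84 hpf, 48 h after irradiation, 3 of the 9 genes were higher in XR than in Cont, where 0.546% of all genes were called as higher, and none was lower. The genes were *apoeb*, *apoea* and *apobb.1*. In FA+XR against FA, a comparison of other larvae, 2 of the 9 were higher (0.49% of all genes), *apoeb* and *apoea*, and none was lower. As the names were chosen with results of these data in view, these calls are not independent evidence. The median of the 9 was -0.01 in the first comparison and 0.17 in the second, beside 0.00 and 0.01 over all genes. Scaled by library totals, the log2 differences would shift by 0.04 in the first comparison and by -0.13 in the second.

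**Figure D3:**
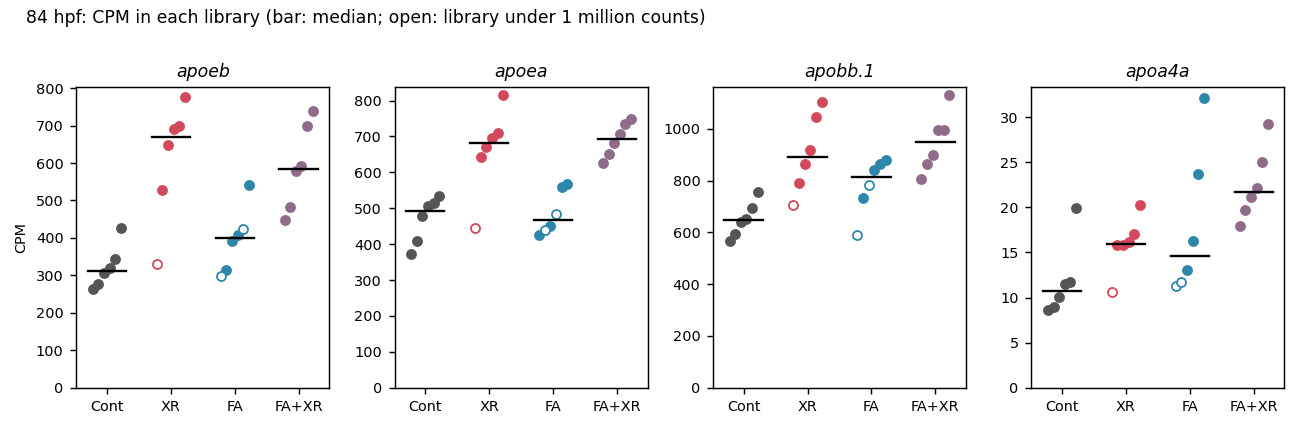
CPM of *apoeb*, *apoea*, *apobb.1* and *apoa4a* in each library of 84 hpf by treatment, with a bar at the median and open points for the libraries of fewest counts. For *apoea* with TMM factors, all 6 FA+XR larvae (625 to 750 CPM) lie above all 6 FA larvae (426 to 567 CPM), and 5 of 6 XR larvae lie above all Cont larvae (373 to 535 CPM). With library totals the FA and FA+XR ranges overlap.

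For *apoeb*, the Cont larvae had 263, 277, 307, 320, 344 and 427 CPM and the XR larvae 330, 528, 649, 692, 700 and 776 CPM. The lowest XR value came from the XR library of 700645 counts, the shallowest of its group, and the other 5 lay above all Cont larvae. The FA larvae had 298, 315, 393, 408, 424 and 540 CPM and the FA+XR larvae 447, 483, 579, 592, 700 and 739 CPM. The log2 difference was 0.94 ± 0.15 for XR against Cont (edgeR adjusted p = 0.00012), about a 1.92-fold higher level, and 0.57 ± 0.15 for FA+XR against FA (adjusted p = 0.067). The first was called in all 12 fits that left out a library in turn and the second in 5 of 12, where its adjusted p ran from 0.0167 to 0.241. The difference between these effects, the FA by XR interaction, was not called for any of the 9 genes by edgeR or DESeq2 at 84 hpf, and none of the 9 had an unadjusted p below 0.05.

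For *apoea*, the Cont larvae had 373, 408, 480, 507, 515 and 535 CPM and the XR larvae 445, 643, 670, 696, 709 and 815 CPM. Again the lowest XR value was that of the library of 700645 counts. The FA larvae had 426, 440, 451, 483, 560 and 567 CPM and the FA+XR larvae 625, 651, 682, 706, 734 and 750 CPM, with no overlap under TMM factors. Scaled by library totals, the ranges of FA and FA+XR overlapped, with medians of 693 and 867 CPM. The differences were 0.52 ± 0.11 (edgeR adjusted p = 0.0063) without FA and 0.50 ± 0.11 (adjusted p = 0.015) with FA, and both were called in all 12 fits that left out a library.

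For *apobb.1*, the Cont larvae had 567, 593, 642, 652, 693 and 755 CPM and the XR larvae 705, 793, 864, 919, 1047 and 1104 CPM, and the ranges overlapped only through the lowest XR larva. The difference was 0.50 ± 0.11 (edgeR adjusted p = 0.0069) and was called in all 12 fits that left out a library. The FA larvae had 590 to 880 CPM (median 813) and the FA+XR larvae 807 to 1132 CPM (median 947.5), a difference of 0.27 ± 0.11 that was not called. *APOB*, the other scaffold gene, had medians of 104 CPM in Cont and 105.5 CPM in XR, a difference of 0.07 ± 0.13.

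Against Cont, FA+XR larvae of 84 hpf had higher levels of 4 of the 9 genes (0.676% of all genes were called as higher), and these comparisons share the Cont larvae with those of XR. The differences were 0.89 ± 0.15 for *apoeb*, 0.57 ± 0.11 for *apoea*, 0.56 ± 0.11 for *apobb.1* and 0.96 ± 0.21 for *apoa4a* (edgeR adjusted p = 0.000271, 0.00138, 0.00123 and 0.0083). *apoa4a* at this time had 8 to 362 reads in a library. Its CPM was 8.59, 8.93, 10.1, 11.48, 11.7 and 19.98 in Cont, 10.6, 15.8, 15.8, 16.1, 17.1 and 20.2 in XR, 11.2, 11.7, 13.1, 16.2, 23.7 and 32.1 in FA, and 17.9, 19.7, 21.2, 22.2, 25.1 and 29.2 in FA+XR. The XR against Cont difference was 0.49 ± 0.22 and was not called. The change of the XR against Cont difference from 60 to 84 hpf was 1.91 ± 0.37, where 0.0127% of all genes were called as higher, and it is given without a test because its 60 hpf values were known.

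**Figure D4:**
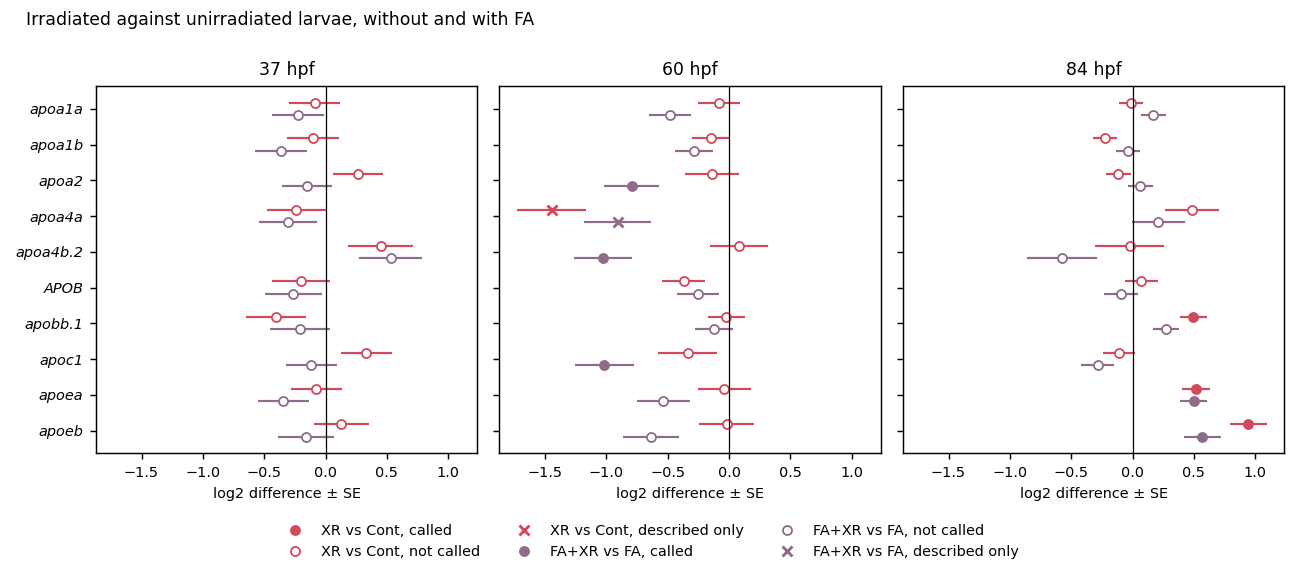
Log2 difference between irradiated and unirradiated larvae (points, with bars of 1 SE) for each gene at 37, 60 and 84 hpf, without FA (XR against Cont) and with FA (FA+XR against FA), filled where called. At 84 hpf *apoeb* (0.94 and 0.57) and *apoea* (0.52 and 0.50) are filled in both comparisons. Crosses mark *apoa4a* at 60 hpf (-1.45 without FA and -0.91 with FA), which was chosen on these values and is shown without a call.

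The remaining genes at 84 hpf showed no call in any treatment comparison. *apoa1a* differed by -0.01 ± 0.10 between XR and Cont, *apoa1b* by -0.23 ± 0.10, *apoa2* by -0.12 ± 0.10, *apoc1* by -0.11 ± 0.13 and *apoa4b.2* by -0.02 ± 0.28. For *apoa1a* the 95% interval ran from -0.21 to 0.18 on the log2 scale, and for *apoa4b.2* from -0.57 to 0.53. Between FA+XR and XR, edgeR on the 24 libraries of each time called none of the 9, and of all genes 0.0062% at 84 hpf and none earlier. DESeq2 called none of the 9 either, and at 36, 37 and 84 hpf 1 of the 9 had an unadjusted p below 0.05. At 60 hpf no gene other than *apoa4a* did. With only the 12 libraries compared, the *apoa4a* difference of 60 hpf was 0.94 ± 0.18, given without a test because the gene was chosen on it. FA against Cont at 84 hpf gave no call by edgeR (0.0248% of all genes) or DESeq2, and limma-voom called 1 of the 9 (14 of all 16127 genes). In the edgeR fit 3 of the 9 were below an unadjusted p of 0.05, as were 790 of all genes.

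Other lists were read at 84 hpf in the same way. Of all genes 0.546% were called as higher and 1.15% as lower in XR against Cont. The shares were 0.49% and 0.546% in FA+XR against FA, and 0.676% and 1.24% in FA+XR against Cont. No gene of lipoprotein assembly, lipases and lipid transfer, lipoprotein receptors, ABC lipid transporters, regulators or fatty acid binding was called by edgeR in XR against Cont or in FA+XR against FA at 84 hpf, and at most 2 genes of any of these lists had an unadjusted p below 0.05 in either. Among the other apolipoproteins *apoc2*, the activator of lipoprotein lipase, was lower in XR than in Cont (-0.34 ± 0.10). Of 14 liver markers 2 rose in XR against Cont, *cp* (0.71 ± 0.18), for ceruloplasmin, and *fga* (0.56 ± 0.14), for a fibrinogen chain, and 2 fell, *serpina1* (-0.52 ± 0.11), for a protease inhibitor, and *ces2a* (-0.52 ± 0.15), for a carboxylesterase. In sum the liver markers ran from 2147 to 3231 CPM in XR and from 2824 to 3590 CPM in Cont. The retina genes *rho*, *gnat1* and *gnat2* fell (-1.18 ± 0.20, -1.12 ± 0.22 and -1.32 ± 0.24), and the muscle gene *ckma* rose (0.40 ± 0.09). Several Ensembl IDs are listed as *rho*, and the value given is that of a single ID. The yolk protein gene *vtg7* was higher in XR than in Cont (3.23 ± 0.85) and in FA+XR than in Cont (4.12 ± 0.82), at low levels of 0 to 0.583 CPM in Cont larvae, 0 to 4.69 CPM in XR larvae and 0.817 to 8.57 CPM in FA+XR larvae, with 0 to 8.43 CPM in FA larvae. The notochord gene *ngs* was also higher in XR (2.21 ± 0.60) and FA+XR (3.07 ± 0.57) than in Cont, the Cont median being 1.27 CPM, that of XR 2.95, that of FA+XR 7.08 and that of FA 9.63. Macrophages are known to make ApoE. The 2 of 4 macrophage markers found, *csf1ra* and *marco*, were near the floor, with 118 and 337 reads in 34 and 55 of the 96 libraries. They summed to 0 to 4.71 CPM in XR and 0 to 2.92 CPM in Cont larvae, and to 2.66 to 5.45 CPM in FA+XR and 0 to 1.76 CPM in FA larvae. The part of these markers in the apolipoprotein differences was not tested.

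Larvae of the same treatment also varied together in these genes. After the group mean was taken out and without the 13 libraries of low depth, Pearson's r between *apoa2* and *apoc1* was 0.92 at 36 hpf (24 libraries), 0.98 at 37 hpf (18), 0.97 at 60 hpf (20) and 0.32 at 84 hpf (21). Between *apobb.1* and *APOB* it was 0.92, 0.91, 0.97 and 0.69. Between *apoea* and *apoeb*, the genes called as higher at 84 hpf both without and with FA, r was 0.15, -0.12, 0.28 and 0.26 without the libraries of low depth, and 0.15, 0.70, 0.03 and 0.59 over all 24 libraries of each time, so the value at 37 and 84 hpf depends on the shallow libraries. Of the 45 pairs among the 9 genes and *APOB*, 17, 15, 32 and 3 had r above 0.5 at the 4 times. These are descriptions over libraries that share depth and composition of their own, and they depend on the shallow ones. With all 24 libraries 17, 37, 22 and 13 of the 45 pairs had r above 0.5, and without the library of 243126 counts alone 22 did at 37 hpf.

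**Figure D5:**
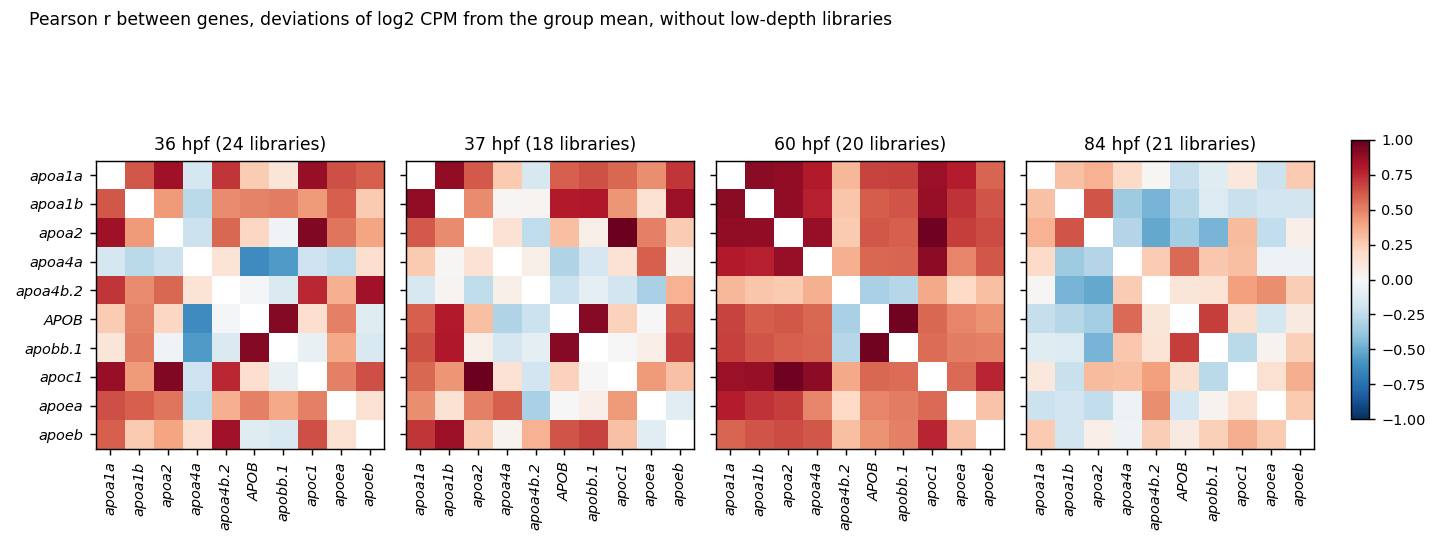
Pearson's r between pairs of genes, *APOB* included, over larvae of one time point, from deviations of log2 CPM from the group mean, without the libraries of low depth. At 60 hpf 32 of 45 pairs exceed 0.5 and at 84 hpf 3 do, beside 22 and 13 with all libraries.

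Among genes outside the family, those with the course most like that of *apoa4a* were named by Pearson's r of log2 CPM. Over the 16 group means r was highest for *NMT1* (0.985), *olig4* (0.981), *SERP1* (0.979), *si:dkey-126g1.9* (0.978) and *PAICS* (0.978). Within the family it was 0.963 for *apoeb*, 0.956 for *apoc1*, 0.954 for *apoa1a* and 0.932 for *apobb.1*, and it was -0.05 for *apoea*, its neighbour in the genome, and -0.35 for *apoa1b*. Over the 24 libraries of 60 hpf the highest were *HMGN2* (0.891), *si:dkey-239b22.2* (0.88), *RSL24D1* (0.879), *HMGB2* (0.878) and *GALNT7* (0.875), with 0.788 for *apoc1* and 0.505 for *apoea*. For these r the group means were not taken out and the shallow libraries were kept. They therefore include the treatment differences on which *apoa4a* was chosen, and the FA libraries of low muscle markers. They do not measure how larvae of the same treatment varied together. With the group mean taken out, r over the same 24 libraries was 0.81 for *apoc1* and 0.46 for *apoea*.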

How the data were processed

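The deposited table holds expected counts per Ensembl gene, which the authors made from paired-end reads using Ensembl transcripts of GRCz11 (the program is not given in the sources used here). The 3 values that were not whole were rounded. Columns were given their group and time from the deposited sample annotation. edgeR 4.0.16 was run on the 24 libraries of each time point and, for changes over time, on all 96, with TMM factors and a mean count of at least 2.5. Log2 CPM used a prior count of 2. Alternatives used DESeq2 1.42.0, limma 3.58.1 (voom), RLE factors, no filter, fewer libraries and an adjusted p below 0.05. Each library was 1 larva. Scripts were tested on simulated data. Members and lists were chosen with earlier results of these data known. Every gene of the family is described, and of each list at most the 4 called genes with the smallest p per comparison are named. Gene names come from a table of Ensembl IDs that named 23608 of 25907 genes.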

Additional observations from a re-analysis of the deposited data

Results flagged for a closer look

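In 23 of 160 sets of 6 larvae (the 9 genes and *APOB* in 16 groups) 1 library lay further from the other 5 than Dixon's 95% limit allows, where about 8 are expected by chance at 1 in 20. The 23 came from 11 libraries. At 37 hpf the FA+XR library of 243126 counts was the low one for *apoa1a* (2415 CPM), *apoa1b* (1126.5), *apoa2* (2577), *apoa4a* (37.3), *apobb.1* (529), *apoc1* (2709) and *apoeb* (606). The FA library of 2538811 counts of 37 hpf was low for *apoa2* (5080.2 CPM) and *apoc1* (6324) and high for *apoa4b.2* (376), and that of 2553002 counts was low for *apoea* (539 CPM).

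At 60 hpf the Cont library of 10806851 counts was the high one for *apoa1b* (5770 CPM), *apoa2* (8960.5), *apoa4a* (109) and *apoc1* (6094). Single libraries stood apart for *apoa2* in FA+XR (8743.5 CPM, high), *apoa4b.2* in FA (346, high), *apoa1a* in XR (5626, high) and *APOB* in XR (82.6, low). At 84 hpf the XR library of 700645 counts was low for *apoa1a* (2718 CPM) and *apoa1b* (2886.5), and 1 library was high for *apoa4a* in Cont (19.98 CPM) and for *APOB* in FA+XR (150.5 CPM). The XR against Cont difference of *apoa4a* moved by 1.91 on the log2 scale from 60 to 84 hpf. This value uses the 60 hpf values the gene was chosen on, and so is a description without a test.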

How the results depend on the processing

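No paired analysis was possible because deposited columns could be tied to a group but not to a numbered larva. Depth limits *apoa4a* at 84 hpf most, with 8 reads in the shallowest library. Of 9 genes, the number called in XR against Cont at 36 hpf was 2 with DESeq2, 1 with RLE factors, 2 with no filter and 1 with voom, against 0, and in the interaction at 36 hpf 2 with DESeq2. In FA+XR against Cont at 37 hpf it was 1 with DESeq2, with no filter, with voom and without low-depth libraries, against 0. In FA+XR against FA at 60 hpf it was 8 with DESeq2 (*apoa4a* among them, as a description), 1 without the libraries of low muscle markers and 0 with only the 12 libraries compared, against 3. With only the 12 libraries compared, FA+XR against XR at 60 hpf gave 1, *apoa4a*, which was chosen on that value, so it is a description and not a call. In FA against Cont at 60 hpf it was 7 with DESeq2, 3 with RLE factors or no filter, and 0 without low-depth libraries, with voom, without the libraries of low muscle markers, with only 12 libraries, and at an adjusted p below 0.05, against 1. The difference of *apoa4a* in that comparison turned to -0.35 without the libraries of low muscle markers. At 84 hpf FA+XR against FA gave 1 at an adjusted p below 0.05, against 2, and FA against Cont gave 1 with voom. Over time, fits of only the libraries compared gave 8 against 5 (XR, 37 to 60 hpf), 2 against 1 (XR, 60 to 84 hpf) and 3 against 6 (FA, 37 to 60 hpf). DESeq2 gave 1 for the change of the XR effect from 37 to 60 hpf, against 0, again *apoa4a* as a description. Without the libraries of low muscle markers FA from 60 to 84 hpf gave 4 against 7, and the FA difference of *apoa2* from 37 to 60 hpf turned to -0.14. The causes were not tested.

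Leaving out 1 library at a time gave 0 to 1 genes in FA+XR against Cont at 37 hpf, 0 to 7 in FA+XR against FA and 0 to 6 in FA against Cont at 60 hpf, and 1 to 2 in FA+XR against FA at 84 hpf. In the same fits XR against Cont gave 3 and FA+XR against Cont 4 at 84 hpf throughout. Over all settings, the count of all genes called ran from 49 to 258 (XR against Cont, 60 hpf, main 66), 28 to 947 (FA+XR against FA, 60 hpf, 234), 0 to 1049 (FA against Cont, 60 hpf, 237), 176 to 487 (XR against Cont, 84 hpf, 273), 114 to 356 (FA+XR against FA, 84 hpf, 167) and 202 to 577 (FA+XR against Cont, 84 hpf, 309). At 36 hpf it ran from 3 to 123 (XR against Cont, main 3) and 0 to 75 (FA by XR interaction, main 0). It ran from 4 to 30 in FA+XR against Cont at 37 hpf (main 14) and from 2 to 14 in FA against Cont at 84 hpf (main 4).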
